A study of Homo sapiens with 183 samples.

Results

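The genes described here build ribosomes or belong to small nucleolar ribonucleoprotein particles (snoRNPs). They were taken by name from a list of 49 genes, of which 48 had a row among the 19875 genes of the 8 expression tables; the expression of PPAN was not analysed here. The tables held 183 poly-A RNA-seq libraries in 59 groups, from human pancreatic ductal adenocarcinoma (PDAC) lines and from 4 lines of other cancers. In the knockout experiments, Cas9-expressing AsPC-1, T3M-4, BxPC-3, CFPAC-1 or SUIT-2 cells carried an sgRNA to RUVBL1, RUVBL2, KLF5, CDK1, RPA3, CHD4 or SERPINB5, and the controls (sgRosa) carried one to the ROSA26 locus. These cells were sampled on day 5. In the inhibitor experiments, cells were exposed for 24 h to CB-6644, an allosteric inhibitor of the RUVBL1/2 ATPase, or to DMSO. AsPC-1 and T3M-4 cells in those experiments stably carried, after G418 selection, a lentiviral empty vector (EV, Lv-Empty), RUVBL1_A62T or RUVBL2_dF109, the last being cDNAs whose products tolerate the inhibitor, and each vector had 3 CB-6644 libraries and 1 DMSO library. T84 (colorectal cancer), A375 (melanoma), H1048 (small-cell lung cancer) and RH30 (rhabdomyosarcoma) cells were parental, with 4 libraries per treatment. The labels do not say which sgRNA a library carried or whether replicates were separate cultures, so p-values measure only the spread between these libraries.

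Ribosomal RNA is transcribed in the nucleolus by RNA polymerase I, and its precursor is folded, cut and modified there while ribosomal proteins are added. Box C/D snoRNPs, built from NOP56, NOP58, FBL and SNU13, guide 2′-O-methylation of ribosomal RNA, and box H/ACA snoRNPs, built from DKC1, NHP2, NOP10 and GAR1, guide pseudouridylation. Neither particle forms unaided. RUVBL1 and RUVBL2, together with RPAP3 and PIH1D1, make up the R2TP chaperone complex, which acts with NUFIP1, ZNHIT3, ZNHIT6 and NAF1 in putting snoRNPs together. The other members serve RNA polymerase I (POLR1A, POLR1B, POLR1C, UBTF, RRN3, TCOF1), form the nucleolar scaffold or its chaperones (NCL, NPM1, NOLC1, LYAR, DDX21), or mature the small subunit (10 genes) and the large subunit (15 genes with a row).

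All values are TPM, a length-scaled share of the RNA measured, so a gene can move because others do. Differences are on the log2(TPM + 1) scale, and a gene is said to have risen or fallen only at a Benjamini-Hochberg adjusted p under 0.05 in limma over every gene of the fit. The percentage of all tested genes that passed in the same direction is given beside the members' first count. In bulk RNA, fewer cells of a type and less RNA per cell cannot be told apart. Libraries of a group correlated with each other at a median r of 0.994, and 4 of 177 fell under 0.97: T3M-4 sgKLF5 experiment 1 replicate 2, SUIT-2 sgKLF5 replicate 4, SUIT-2 sgRosa replicate 1 and AsPC-1 sgRUVBL2 replicate 2. RUVBL1 mRNA was lower in each sgRUVBL1 group (log2 −1.14 to −1.87) and RUVBL2 mRNA in each sgRUVBL2 group (log2 −1.24 to −1.76). KLF5 mRNA fell in 1 of 8 sgKLF5 comparisons (CFPAC-1, log2 −0.41) and rose in 2, and CHD4 mRNA was 61.7 to 97.5 TPM in sgCHD4 against 65.1 to 69.1 TPM in sgRosa, so the mRNA of the targeted gene gives no check of those labels. In CFPAC-1, CDK1 was 194 to 207 TPM in the libraries labelled sgCDK1 and 81.0 to 91.9 TPM in those labelled sgRPA3, against 206 to 236 TPM in sgRosa. RPA3 there was 27.9 to 32.7 TPM in the libraries labelled sgCDK1 and 30.3 to 31.7 TPM in those labelled sgRPA3, both under the 33.2 to 45.7 TPM of sgRosa. CDK1 mRNA was thus low under the other label, which leaves both labels in doubt. As for KLF5 and CHD4, the mRNA of a target does not settle its label.

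4 members moved in 1 direction in at least 7 of the 9 comparisons of a RUVBL1 or RUVBL2 knockout with sgRosa: ZNHIT3 and RRN3 rose, FBL and NPM1 fell. Of 10718 genes tested in all 9, 2.8% rose and 2.72% fell that often, so the members' 2 of 47 in each direction lie near the share of all genes. The 120 bases before their annotated starts are printed 5′ to 3′ on the gene's strand (RefSeq, GRCh38.p14), since they lie just upstream of the 4 transcripts that moved most regularly, in opposite directions. Capitals mark the box GGGCGGG, to which Sp/KLF factors are known to bind, and its variant GGGTGGG, read on either strand. The window of FBL is chr19:39846380-39846499 on the minus strand, that of ZNHIT3 chr17:36486561-36486680 on the plus strand, that of RRN3 chr16:15094336-15094455 on the minus strand and that of NPM1 chr5:171387729-171387848 on the plus strand.
FBL: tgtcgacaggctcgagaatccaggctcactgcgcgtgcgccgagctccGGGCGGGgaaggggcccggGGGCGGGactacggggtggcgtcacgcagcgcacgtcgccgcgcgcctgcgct
NPM1: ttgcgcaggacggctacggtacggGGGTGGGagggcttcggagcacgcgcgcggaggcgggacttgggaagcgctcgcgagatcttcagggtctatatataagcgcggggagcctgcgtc
ZNHIT3: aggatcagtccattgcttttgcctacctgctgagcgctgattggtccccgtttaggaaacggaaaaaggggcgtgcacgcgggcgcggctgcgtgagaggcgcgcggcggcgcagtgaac
RRN3: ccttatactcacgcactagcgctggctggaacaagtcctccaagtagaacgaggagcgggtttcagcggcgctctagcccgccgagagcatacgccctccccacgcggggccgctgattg
Over 250 bases before the start and either strand, GGGCGGG was in 18 of the 39 listed genes, PPAN included, with a promoter in the table (46.2%) and in 31.5% of all 35116 promoters. GGGTGGG was in 6 of them (15.4%, against 18.2%), and the E-box CACGTG, the MYC/MAX site, in UTP20 and NOP10 alone (5.13%, against 6.34%). A match describes letters in a window and not a bound factor.

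ZNHIT3, the zinc-finger partner of NUFIP1 in box C/D assembly, was the one assembly factor whose transcript rose regularly with loss of either ATPase. In AsPC-1 experiment 2 it was 68.6, 67.8, 74.8 and 60.9 TPM in sgRosa and 133, 126, 126 and 118 TPM in sgRUVBL1. In AsPC-1 experiment 3 it was 63.9, 63.5, 60.5 and 61.9 TPM in sgRosa, 126, 109, 116 and 113 TPM in sgRUVBL1, and 88.1, 93.5, 95.1 and 96.3 TPM in sgRUVBL2. Every knockout library stood above every control library in both experiments. T3M-4 gave 77.2, 74.4, 81.7 and 87.4 TPM in sgRosa, 112, 109 and 116 TPM in sgRUVBL1, and 101, 110, 120 and 103 TPM in sgRUVBL2. In BxPC-3 it was 67.6, 59.6, 66.1 and 67.5 TPM in sgRosa, 79.5, 82.0, 74.7 and 86.6 TPM in sgRUVBL1, and 73.8, 75.1 and 81.2 TPM in sgRUVBL2. These groups did not overlap either, though the step in BxPC-3 was small. CFPAC-1 gave 89.8, 82.6, 64.1 and 72.1 TPM in sgRosa, 120, 120, 110 and 104 TPM in sgRUVBL1, and 86.7 and 108 TPM in sgRUVBL2, the last overlapping the controls. The log2 increase was 0.88 ± 0.073 (SE; adjusted p = 1.08e-07) and 0.88 ± 0.066 (adjusted p = 1.71e-08) for sgRUVBL1 in the AsPC-1 experiments, 0.57 ± 0.066 for AsPC-1 sgRUVBL2, 0.48 ± 0.089 and 0.43 ± 0.082 in T3M-4, 0.30 ± 0.065 and 0.23 ± 0.070 in BxPC-3, and 0.56 ± 0.098 for CFPAC-1 sgRUVBL1. CFPAC-1 sgRUVBL2, with 2 libraries, gave 0.33 ± 0.12 and missed the threshold (adjusted p = 0.0777). When libraries were rescaled by the median of gene ratios, ZNHIT3 kept its sign in all 9 and passed in 6, missing in T3M-4 sgRUVBL1 (0.19), T3M-4 sgRUVBL2 (0.22) and BxPC-3 sgRUVBL2 (0.30).

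RRN3, the factor that joins RNA polymerase I to the ribosomal DNA promoter, showed the widest rise of any member. Its level in AsPC-1 experiment 2 went from 55.1, 51.8, 57.8 and 57.2 TPM in sgRosa to 121, 131, 138 and 135 TPM in sgRUVBL1. In experiment 3 the sgRosa libraries held 57.3, 57.1, 58.9 and 59.7 TPM, the sgRUVBL1 libraries 176, 152, 149 and 189 TPM, and the sgRUVBL2 libraries 128, 158, 142 and 145 TPM. The lowest knockout library of AsPC-1 thus stood far above the highest control. In T3M-4 it was 47.9, 47.3, 47.0 and 48.3 TPM in sgRosa, 80.1, 83.4 and 79.3 TPM in sgRUVBL1, and 59.9, 84.5, 78.2 and 65.3 TPM in sgRUVBL2. BxPC-3 held 41.0, 36.9, 37.2 and 35.3 TPM in sgRosa, 58.1, 43.1, 45.9 and 57.5 TPM in sgRUVBL1, and 48.1, 51.8 and 44.1 TPM in sgRUVBL2. In CFPAC-1 it was 47.3, 43.4, 44.0 and 38.3 TPM in sgRosa, 56.5, 70.6, 51.6 and 58.0 TPM in sgRUVBL1, and 48.0 and 57.8 TPM in sgRUVBL2. No knockout library of these 3 lines reached down into its controls. The log2 rise was 1.23 ± 0.059, 1.49 ± 0.073 and 1.28 ± 0.073 in AsPC-1 (sgRUVBL1 experiments 2 and 3, then sgRUVBL2), 0.75 ± 0.095 and 0.57 ± 0.088 in T3M-4, 0.42 ± 0.091 and 0.34 ± 0.099 in BxPC-3, and 0.44 ± 0.099 for CFPAC-1 sgRUVBL1. CFPAC-1 sgRUVBL2 gave 0.28 ± 0.12 (adjusted p = 0.136), and after rescaling RRN3 passed in all 9. RRN3 has 3 annotated pseudogene copies, none with a row of its own, so its reads may include theirs.

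**Figure D1:**
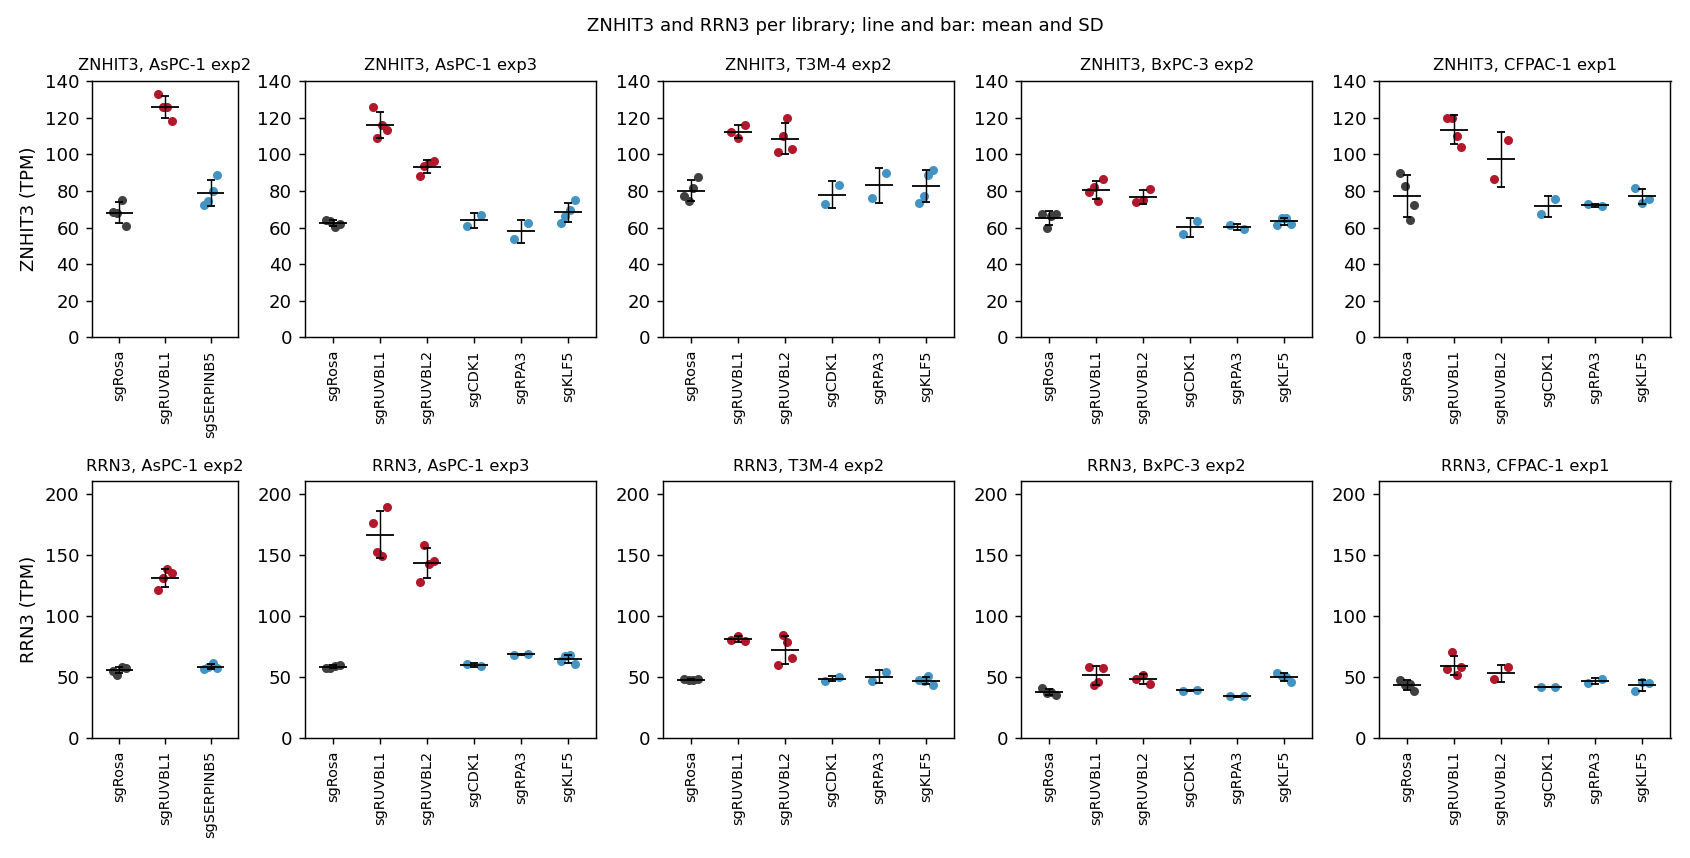
ZNHIT3 (upper row) and RRN3 (lower row) in TPM in each library, by line, experiment and sgRNA target. Each point is 1 library (red RUVBL1 or RUVBL2, dark grey sgRosa, blue other targets), with the mean and SD drawn as lines. The red points stand above the dark grey ones in every panel except ZNHIT3 in CFPAC-1, where the sgRUVBL2 library at 86.7 TPM lies under the highest sgRosa library at 89.8 TPM.

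FBL, the methyltransferase of box C/D particles, fell in 7 of 9 comparisons, most in T3M-4. There it was 312, 288, 287 and 347 TPM in sgRosa, 159, 164 and 176 TPM in sgRUVBL1 and 178, 176, 192 and 153 TPM in sgRUVBL2. The log2 decrease was −0.88 ± 0.079 (adjusted p = 1.06e-07) and −0.82 ± 0.073 (adjusted p = 9.43e-08), with no overlap. In BxPC-3 FBL was 601, 655, 560 and 542 TPM in sgRosa, 452, 519, 473 and 475 TPM in sgRUVBL1, and 485, 433 and 527 TPM in sgRUVBL2 (log2 −0.29 in both). AsPC-1 experiment 3 held 360, 362, 346 and 347 TPM in sgRosa, 263, 303, 323 and 271 TPM in sgRUVBL1, and 295, 337, 295 and 299 TPM in sgRUVBL2 (log2 −0.29 and −0.21). In AsPC-1 experiment 2 the 455, 421, 370 and 395 TPM of sgRosa overlapped the 384, 361, 339 and 361 TPM of sgRUVBL1 (log2 −0.18, adjusted p = 0.019). CFPAC-1 did not follow: 320, 368, 364 and 359 TPM in sgRosa, 355, 340, 401 and 359 TPM in sgRUVBL1 (log2 0.04, adjusted p = 0.601) and 321 and 289 TPM in sgRUVBL2 (log2 −0.21, adjusted p = 0.0908). After rescaling FBL fell in 4 comparisons and, in CFPAC-1 sgRUVBL1, rose by log2 0.27.

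The other box C/D core proteins did not move with FBL. NOP58 rose in 6 of 9 comparisons (log2 0.07 to 0.72) and fell in none. In AsPC-1 experiment 3 it was 171, 174, 183 and 180 TPM in sgRosa, 313, 286, 274 and 298 TPM in sgRUVBL1, and 227, 278, 240 and 245 TPM in sgRUVBL2. All knockout libraries were higher, by log2 0.72 and 0.48. In BxPC-3 NOP58 was 96.1, 87.1, 84.9 and 72.1 TPM in sgRosa, 141, 115, 116 and 136 TPM in sgRUVBL1, and 112, 117 and 113 TPM in sgRUVBL2 (log2 0.57 and 0.43). In T3M-4 it was 112, 119, 96.2 and 105 TPM in sgRosa, 129, 126 and 128 TPM in sgRUVBL1, and 122, 142, 100 and 94.4 TPM in sgRUVBL2, and neither difference passed. NOP58 also rose in AsPC-1 experiment 2 (from 220, 228, 265 and 232 TPM to 283, 295, 282 and 303 TPM) and in CFPAC-1 sgRUVBL1 (from 118, 125, 114 and 120 TPM to 154, 170, 151 and 152 TPM). The CFPAC-1 sgRUVBL2 libraries held 126 and 157 TPM, which did not pass. NOP56 fell in 4 comparisons (log2 −0.39 to 0.07 over the 9), and SNU13, the kink-turn binder, rose in 2 and fell in 1.

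Among H/ACA proteins DKC1, the pseudouridine synthase, and NHP2 passed only in T3M-4 before rescaling. DKC1 there was 110, 108, 103 and 105 TPM in sgRosa, 75.1, 82.5 and 80.3 TPM in sgRUVBL1, and 70.2, 75.5, 75.2 and 75.7 TPM in sgRUVBL2. Both knockouts lay wholly under the controls (log2 −0.42, adjusted p = 1.19e-05, and −0.52, adjusted p = 5.96e-07). In AsPC-1 DKC1 was 201, 179, 191 and 182 TPM in sgRosa of experiment 2 and 181, 197, 187 and 186 TPM in sgRUVBL1. Experiment 3 held 116, 122, 125 and 125 TPM in sgRosa, 124, 143, 138 and 126 TPM in sgRUVBL1 and 122, 124, 122 and 123 TPM in sgRUVBL2. These ranges overlap or nearly so, and no difference passed. The BxPC-3 libraries gave 146, 135, 129 and 123 TPM in sgRosa, 150, 140, 140 and 158 TPM in sgRUVBL1 and 154, 135 and 138 TPM in sgRUVBL2. CFPAC-1 gave 97.5, 122, 104 and 97.6 TPM in sgRosa, 96.0, 95.8, 106 and 97.0 TPM in sgRUVBL1 and 96.9 and 93.5 TPM in sgRUVBL2, and DKC1 passed in neither line. NOP10 rose in 3 comparisons (log2 −0.13 to 0.46 over the 9), and GAR1 passed in none (log2 −0.26 to 0.11). After rescaling DKC1 fell in 2 comparisons, NHP2 fell in 4 and rose in 1, NOP10 rose in 2 and fell in 2, and GAR1 passed in none.

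NUFIP1, the scaffold of box C/D assembly, stood among the weakest members in level and fell in 1 comparison. In CFPAC-1 it was 6.49, 6.88, 5.35 and 4.89 TPM in sgRosa, 5.46, 3.31, 4.11 and 2.80 TPM in sgRUVBL1 (log2 −0.51, adjusted p = 0.022) and 4.0 and 3.34 TPM in sgRUVBL2. The sgRUVBL1 libraries overlapped the controls by 1 library. AsPC-1 gave 10.0, 7.76, 10.7 and 9.44 TPM in sgRosa against 7.63, 8.70, 8.59 and 7.77 TPM in sgRUVBL1 of experiment 2, and 7.05, 6.95, 6.41 and 5.75 TPM against 8.32, 7.11, 7.52 and 7.75 TPM (sgRUVBL1) and 7.34, 3.97, 7.75 and 9.45 TPM (sgRUVBL2) of experiment 3. T3M-4 gave 12.7, 11.7, 11.9 and 6.57 TPM in sgRosa, 11.8, 10.2 and 12.2 TPM in sgRUVBL1 and 8.19, 11.6, 10.9 and 10.2 TPM in sgRUVBL2. BxPC-3 gave 10.9, 9.37, 10.4 and 9.75 TPM in sgRosa, 9.06, 8.52, 9.71 and 10.4 TPM in sgRUVBL1 and 11.1, 10.5 and 5.25 TPM in sgRUVBL2. No difference was detectable at these levels in the lines other than CFPAC-1. NAF1, which escorts H/ACA particles before GAR1 joins, rose in 1 comparison and fell in 1, and ZNHIT6 (BCD1) rose in 2 and fell in 1.

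NPM1, the chaperone that forms the outer nucleolar layer, is the most abundant member and fell in 7 of 9. T3M-4 held 2530, 2410, 2160 and 2630 TPM in sgRosa, 1470, 1510 and 1550 TPM in sgRUVBL1, and 1460, 1470, 1500 and 1400 TPM in sgRUVBL2. AsPC-1 experiment 2 held 2970, 2890, 3060 and 2740 TPM in sgRosa and 1900, 2030, 1900 and 1950 TPM in sgRUVBL1. These knockout libraries were all far under their controls (log2 −0.68 and −0.74 in T3M-4, and −0.58 ± 0.051, adjusted p = 1.99e-07, in AsPC-1). AsPC-1 experiment 3 held 2350, 2380, 2250 and 2350 TPM in sgRosa, 1860, 2130, 2130 and 1830 TPM in sgRUVBL1 and 1950, 2170, 1980 and 2000 TPM in sgRUVBL2 (log2 −0.23 and −0.20). BxPC-3 held 2530, 2290, 2190 and 2170 TPM in sgRosa, 1870, 2110, 1970 and 1880 TPM in sgRUVBL1 (log2 −0.23, adjusted p = 0.0243) and 2300, 2020 and 2450 TPM in sgRUVBL2 (log2 −0.03, adjusted p = 0.84). CFPAC-1 held 2690, 2990, 2590 and 3030 TPM in sgRosa, 2600, 2520, 2670 and 2630 TPM in sgRUVBL1 (log2 −0.11, adjusted p = 0.0985) and 2220 and 2420 TPM in sgRUVBL2 (log2 −0.28, adjusted p = 0.0133). The overlapping groups were thus those of BxPC-3 sgRUVBL2 and CFPAC-1 sgRUVBL1. After rescaling NPM1 fell in 5 of 9 and rose in 0. NPM1 has 49 annotated pseudogene copies, none with a row, so its values may hold reads of theirs; 13 members in all have such copies.

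Within the remaining roles the directions were mixed. GNL2, a nucleolar GTPase, rose in 6 comparisons (log2 0.14 to 0.78). RRS1, needed for 5S particle entry into the large subunit, fell in 6 (log2 −0.58 to −0.27 over the 9), BOP1, of the PeBoW complex, in 5 (log2 −0.62 to −0.24), NOP2, a 28S ribosomal RNA methyltransferase, in 5 (log2 −0.79 to 0.01), and TCOF1, treacle, in 5 (log2 −0.73 to 0.17). UBTF, the upstream binding factor of ribosomal DNA, the PeBoW protein WDR12 and the small subunit protein NOP14 fell in 4 each, whereas POLR1C, shared between polymerases I and III, and the helicases DDX56 and DDX18 rose in 3 each. GNL3, nucleostemin, rose in 3 and fell in 3. 12 of the 48 members rose in at least 1 comparison and fell in at least 1. The share of all genes that did so was not counted, so this does not set the members apart.

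By line, the members as a list moved differently. AsPC-1 sgRUVBL1 raised 10 of 48 members and lowered 15 in experiment 2 (30% and 25.8% of all genes tested), with UTP20 (log2 −0.73), HEATR1 (−0.54), POLR1A, the largest polymerase I subunit (−0.51), and nucleolin, NCL (−0.45), among the falls. In experiment 3 the same knockout raised 20 of 47 and lowered 5 (36.6% and 15.2%), with GNL2 (log2 0.78) and DDX18 (0.68) high among the rises and RRS1 (−0.34), BOP1 (−0.33) and UBTF (−0.19) among the falls. AsPC-1 sgRUVBL2 raised 19 of 47 and lowered 4 (32.2% and 11%), led after RRN3 and ZNHIT3 by DDX18 (log2 0.56), GNL2 (0.49) and DDX56 (0.49). Without its replicate 2, which stood apart, the counts were 18 and 3, and the shares of all genes were not counted. In experiment 3 the members' shares were a little above those of all genes for rises and below them for falls. The AsPC-1 sgRUVBL1 effect differed between the experiments for 23 of 48 members (23.8% of all genes): DDX18 was log2 −0.16 in experiment 2 and 0.68 in experiment 3, HEATR1 −0.54 and 0.10, and UTP20 −0.73 and 0.04, while ZNHIT3 was 0.88 in both (adjusted p of the difference 0.976).

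In T3M-4 the list went down against a background that went up. The sgRUVBL1 libraries raised 4 of 48 members and lowered 17, where 45.9% of all genes rose and 14.6% fell, and the sgRUVBL2 libraries raised 2 and lowered 23 (39.3% and 15.2%). The members' median log2 difference was −0.03 and −0.18, with 0.25 and 0.19 for all genes, that is 0.29 and 0.37 lower than the median gene. NOP16 (log2 −0.67) and BOP1 (−0.62) followed FBL and NPM1 for sgRUVBL1, and TCOF1 (−0.64), BOP1 (−0.61) and LYAR (−0.55), a growth-regulating nucleolar protein, for sgRUVBL2. GNL2 (0.41) and DDX18 (0.27, but −0.022 rescaled) were the rises of sgRUVBL1 beside RRN3 and ZNHIT3. Rescaling removed the upward shift of all genes. It gave 1 member higher and 31 lower for sgRUVBL1 and 1 higher and 35 lower for sgRUVBL2. Rescaled, 3488 of all genes rose and 3947 fell for sgRUVBL1, against 6080 and 1933 before. For sgRUVBL2 3267 rose and 3742 fell, against 5208 and 2014 before. The shares given first thus do not apply to the rescaled counts.

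BxPC-3 changed least: sgRUVBL1 raised 6 of 48 and lowered 4 (8.29% and 7.67% of all genes), and sgRUVBL2 raised 3 and lowered 3 (4.27% and 5.48%). POLR1C (log2 0.36) and GNL2 (0.33) rose and NOP2 (−0.33) and WDR12 (−0.24) fell for sgRUVBL1, while TCOF1 (−0.50) and NOP2 (−0.44) fell for sgRUVBL2. CFPAC-1 sgRUVBL1 raised 5 and lowered 22, where 6.54% of all genes rose and 37.3% fell, so that the members' median (−0.18) was that of all genes (−0.20). Its falls were led by POLR1A (log2 −0.86), NOP2 (−0.79), TCOF1 (−0.73), UTP20 (−0.67) and HEATR1 (−0.63), and NOP10 (0.31) rose. Rescaled, it gave 8 higher and 9 lower, with 2440 of all genes higher and 2152 lower (834 and 4750 before). CFPAC-1 sgRUVBL2 raised 0 and lowered 4 (2.83% and 9.26%): NOP14 (−0.44), TCOF1 (−0.40), GNL3 (−0.38) and NPM1. Rescaled, it gave 3 higher and 1 lower, with 665 of all genes higher and 761 lower (361 and 1181 before). Without rescaling, the lowered members were 14 without sgRosa replicate 4 and 0 without sgRUVBL2 replicate 1. They were also 0 with sgRUVBL2 and sgRosa alone in the fit. Shares of all genes were not counted in these fits. Rescaling likewise turned the split in AsPC-1 experiment 3 to 14 higher and 9 lower for sgRUVBL1 and 9 higher and 10 lower for sgRUVBL2. In BxPC-3 sgRUVBL1 it became 6 and 6. All genes then were 2861 higher and 3240 lower for AsPC-1 sgRUVBL1, 2303 and 2677 for AsPC-1 sgRUVBL2, and 1190 and 1167 for BxPC-3 sgRUVBL1.

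**Figure D2:**
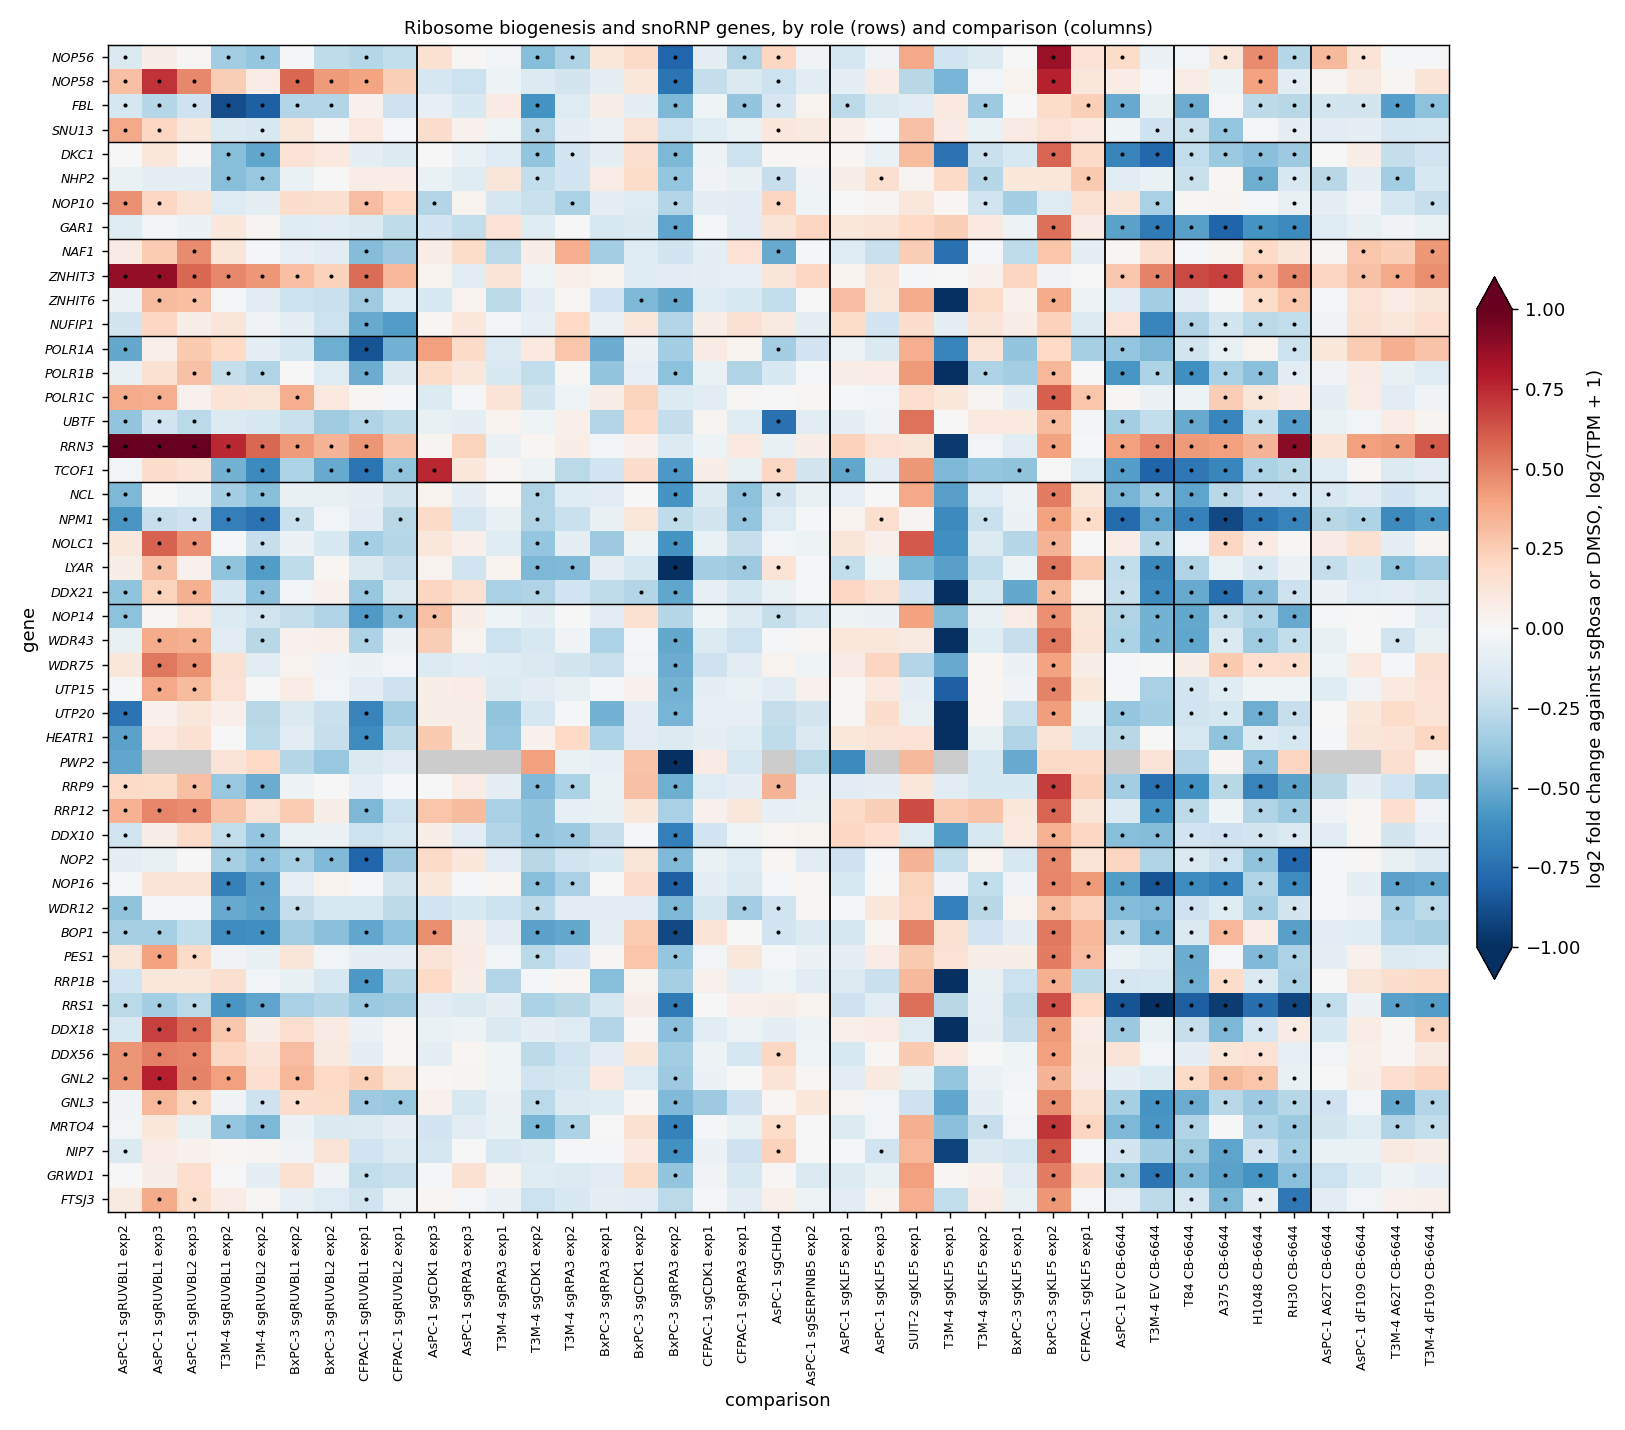
Log2 fold change, on the log2(TPM + 1) scale, of the 48 members (y axis, grouped by role) in each comparison with sgRosa or DMSO (x axis, grouped by family; exp1, exp2 and exp3 are experiments 1 to 3). Black dots mark adjusted p under 0.05 and grey cells genes not tested; the scale stops at 1 in either direction. ZNHIT3 and RRN3 are red across the RUVBL and CB-6644 columns, RRS1 and NPM1 are blue there, and BxPC-3 sgKLF5 experiment 2 is a red column beside the blue one of sgRPA3.

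Other genes of the same pathways served as context. Of 86 further ribosome biogenesis genes, 51 rose and 7 fell in AsPC-1 sgRUVBL1 experiment 3, 12 rose and 25 fell in T3M-4 sgRUVBL2, and 6 rose and 31 fell in CFPAC-1 sgRUVBL1. The shares of all genes, risen and fallen, were 36.6% and 15.2%, 39.3% and 15.2%, and 6.54% and 37.3%. PIH1D1, the R2TP adaptor, fell in 7 of the 9 comparisons (log2 −0.56 to −0.12 over the 9). Of 16 genes of DNA replication and division, 4 to 16 fell in each RUVBL comparison and none rose; a share of proliferating cells moves such genes, and its part in the members' values was not tested. MYC, a transcription factor known to activate ribosome biogenesis genes, fell in 3 of 9 (log2 −0.44 to 0.17 over the 9).

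CDK1, the mitotic kinase, and RPA3, a subunit of the single-strand DNA binding complex, are needed for cells to divide, and their knockouts served as a comparison with loss of other essential genes. ZNHIT3 and RRN3 passed in none of the 12 comparisons of sgCDK1, sgRPA3, sgCHD4 or sgSERPINB5 with sgRosa (ZNHIT3 log2 −0.12 to 0.21, RRN3 −0.13 to 0.23). In the comparisons listed below where no member passed, few or no genes of any kind did, so a miss there shows little. Tested directly against the mean of sgCDK1 and sgRPA3 of the same fit, ZNHIT3 was higher in sgRUVBL1 or sgRUVBL2 in 8 of 8 comparisons (log2 0.34 to 0.92), and RRN3 in 7 of 8. In CFPAC-1 these rest on libraries whose labels are in doubt. ZNHIT3 and RRN3 had been named for their rise in the same knockout libraries, so these tests are not separate support. The share of all genes that passed as often was not counted. NOP58 was higher than that mean in 7 of 8 (log2 0.40 to 0.91; 0.23 in T3M-4 sgRUVBL2 did not pass). FBL was lower in 3 and higher in 1, and NPM1 lower in 4 and higher in 1, the higher values being those of CFPAC-1 sgRUVBL1 (log2 0.26 and 0.17). Over the list, AsPC-1 gave 19 higher and 6 lower of 47 for sgRUVBL1 and 16 and 3 for sgRUVBL2. All genes were 3928 and 2334, and 3339 and 1813, of 12224. T3M-4 gave 11 and 6, and 8 and 7 (all genes 3572 and 1961, and 2864 and 2199, of 13246). BxPC-3 gave 20 and 0, and 16 and 1 (1346 and 1184, and 1070 and 1491, of 12380). CFPAC-1 gave 9 and 14, and 3 and 4 (987 and 6081, and 398 and 2634, of 12748).

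These control knockouts moved many members on their own. Set directly against them, the T3M-4 members' median differed from the median gene by −0.04 for sgRUVBL1 and −0.09 for sgRUVBL2. Against sgRosa it differed by −0.29 and −0.37. BxPC-3 sgRPA3 experiment 2 lowered 34 of 48 and raised 0 (11.6% and 9.12% of all genes), led by PWP2 (log2 −1.45), LYAR (−1.19), BOP1 (−0.90), NOP16 (−0.82) and NOP56 (−0.79), and 14 of the 16 replication genes fell with them. Leaving out 1 library gave 20 to 35 lowered members, the fewest without sgRPA3 replicate 1 (20) or replicate 2 (21). T3M-4 sgCDK1 lowered 18 and raised 0 (3.85% and 13%): FBL (−0.59), BOP1 (−0.53), MRTO4 (−0.46), LYAR (−0.45) and RRP9, a U3 protein (−0.44), led. Leaving out 1 library gave 7 to 22, the fewest without sgCDK1 replicate 1, and with sgCDK1 and sgRosa alone in the fit the count was 1. T3M-4 sgRPA3 experiment 2 lowered 9 and raised 0 (6.2% and 18.4%), and with sgRPA3 and sgRosa alone in the fit it lowered 0. Shares of all genes were not counted in fits without a library or with only the groups compared. Rescaled, these T3M-4 counts were 32 and 27, while falls over all genes went from 510 to 1324 and from 821 to 2162. BxPC-3 sgCDK1 lowered ZNHIT6 (log2 −0.45) and DDX21 (−0.29) and raised 0 (2.12% and 3.71%). AsPC-1 sgCDK1 raised TCOF1 (0.76), BOP1 (0.46) and NOP14 (0.29) and lowered NOP10 (−0.30), at 10.3% and 6.44%. The CFPAC-1 libraries labelled sgRPA3 lowered 6 members, among them NCL (−0.41), FBL (−0.39) and NPM1 (−0.38), and raised 0 (3.39% and 8.17%).

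In 5 further comparisons no member passed in limma. These were AsPC-1 sgRPA3 (0.638% of all genes rose and 0.0164% fell; 7 members had an unadjusted p under 0.05), T3M-4 sgRPA3 experiment 1 (0% and 0%; 0 members), BxPC-3 sgRPA3 experiment 1 (0.29% and 0.0161%; 0 members), the CFPAC-1 libraries labelled sgCDK1 (0% and 0%; 4 members) and AsPC-1 sgSERPINB5 (0.0172% and 0.0172%; 3 members). AsPC-1 sgCHD4, against a chromatin remodeller, raised 9 of 47 and lowered 10 (23.3% and 26.7%), with UBTF (log2 −0.74) and NAF1 (−0.50) the largest falls and RRP9 (0.34) the largest rise.

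RUVBL1 and RUVBL2 knockouts hardly differed from each other in these genes. In AsPC-1, 4 of 47 members were lower in sgRUVBL2 than in sgRUVBL1 (3.71% of all genes passed in either direction): POLR1C (log2 −0.32), ZNHIT3 (−0.31), GNL2 (−0.29) and NOP58 (−0.24). In T3M-4, BxPC-3 and CFPAC-1 limma passed 0 members (0.0226%, 0.0323% and 0.0235%), with 8, 3 and 5 at an unadjusted p under 0.05, and the members' differences lay between log2 −0.33 and 0.43. A missed threshold with 2 to 4 libraries a group does not show that they act alike.

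CB-6644 lowered 23 to 36 members in each of the 6 lines without a tolerant variant and raised 2 to 11. In AsPC-1 EV cells 27 of 47 fell and 3 rose (17.2% and 47.2% of all genes), in T3M-4 EV cells 23 of 48 fell and 2 rose (15.2% and 19.1%), in T84 34 fell and 3 rose (24.2% and 47.2%), in A375 27 and 10 (29.7% and 51.5%), in H1048 32 and 11 (24% and 53.9%), and in RH30 36 and 5 (27.3% and 50.4%). The members' median log2 difference ran from −0.33 to −0.14, while that of all genes ran from 0.04 to 0.19. The −0.33 is that of T3M-4 EV cells against the pooled DMSO libraries of all vectors. With the EV DMSO library alone as control, the median was −0.13 in T3M-4 and −0.38 in AsPC-1 EV cells. 16 members fell in all 6: DKC1 and GAR1; POLR1B and TCOF1; NCL, NPM1 and DDX21; NOP14, WDR43, RRP9 and DDX10; and NOP16, WDR12, RRS1, GNL3 and GRWD1. 2 rose in all 6, again ZNHIT3 and RRN3. Of 10024 genes tested in all 6, 47 of them members, 5.48% fell and 10.6% rose in all 6. Rescaled, the falls numbered 39, 32, 44, 40, 38 and 41 and the rises 0, 2, 2, 3, 4 and 3, in the order given. Falls over all genes grew as well, from 2110, 2041, 2941, 3930, 3294 and 3321 to 4474, 3367, 4800, 5817, 5470 and 4994. Rises over all genes were then 3111, 2201, 3804, 4802, 4815 and 4252.

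RRS1 had the deepest fall, log2 −1.23 to −0.75. In AsPC-1 it was 19.9, 18.7 and 20.2 TPM in CB-6644-treated EV cells and 40, 33.1 and 36.4 TPM in the DMSO libraries of EV, RUVBL1_A62T and RUVBL2_dF109. In T3M-4 the values were 23.1, 21.2 and 21.5 TPM against 43.2, 62.1 and 54.5 TPM. T84 gave 32.2, 35.4, 34.7 and 32.5 TPM against 58.0, 60, 63.4 and 60.5 TPM. A375 went from 94.4, 89.8, 83.4 and 79.7 TPM in DMSO to 43.9, 42.7, 47.1 and 43.8 TPM, H1048 from 38.4, 37.4, 34.0 and 38.2 TPM to 22.5, 21.4, 21.5 and 20.7 TPM, and RH30 from 43.3, 46.0, 44.6 and 41.9 TPM to 22.6, 23.2, 23.5 and 21.8 TPM. The treated and DMSO libraries were wholly apart in every line.

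NPM1 fell in all 6 lines (log2 −0.90 to −0.53). It went from 2380, 2320 and 2470 TPM in DMSO to 1450, 1430 and 1320 TPM in AsPC-1 EV cells, from 2900, 2120 and 2440 TPM to 1520, 1770 and 1860 TPM in T3M-4 EV cells, and from 4480, 4430, 4380 and 4490 TPM to 2390, 2290, 2430 and 2400 TPM in A375. The A375 control level is the highest of NPM1 in any line.

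Both particles were touched unevenly. GAR1 (log2 −0.80 to −0.54) and DKC1 (−0.79 to −0.24) fell in all 6 lines, and GAR1 in AsPC-1 EV cells was 33.1, 36.8 and 35.9 TPM against 54.0, 49.5 and 51.5 TPM in DMSO. DKC1 in AsPC-1 EV cells was 82.2, 78.5 and 84.9 TPM against 126, 128 and 135 TPM, and in T3M-4 EV cells 70.4, 67.6 and 58.2 TPM against 98.2, 124 and 119 TPM. The H/ACA partners NHP2 (3 of 6 fell) and NOP10 (2 of 6 fell) moved less. Of the C/D core, FBL fell in AsPC-1 EV cells (−0.50), T84 (−0.50), H1048 (−0.26) and RH30 (−0.28) and had log2 −0.07 in T3M-4 EV cells and −0.02 in A375. SNU13 fell in 4 of 6, NOP58 rose in H1048 (0.40) and fell in RH30 (−0.11), and NOP56 rose in AsPC-1 EV cells (0.18), A375 (0.11) and H1048 (0.47) and fell in RH30 (−0.29), its sign turning in AsPC-1 EV cells (−0.086) and A375 (−0.11) on rescaling.

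Among assembly factors ZNHIT3 was the one that rose in every line (log2 0.27 to 0.69). It was 73.2, 78.1 and 76.5 TPM in treated AsPC-1 EV cells against 57.0, 64.0 and 67.5 TPM in DMSO, and 128, 133 and 159 TPM against 98.9, 104 and 92.9 TPM in T3M-4. T84 had 102, 107, 101 and 107 TPM against 70.4, 63.1, 59.9 and 69.1 TPM, and A375 134, 135, 128 and 129 TPM against 81.2, 80.0, 83.6 and 80.4 TPM. All treated libraries exceeded their controls. H1048 (191, 201, 188 and 192 TPM against 147, 148, 158 and 159 TPM) and RH30 (171, 168, 167 and 178 TPM against 120, 122, 121 and 127 TPM) did the same. NUFIP1 fell in the 4 lines of other cancers (log2 −0.30 to −0.18), and its −0.66 in T3M-4 EV cells, from libraries at 8.19, 6.28 and 3.12 TPM, did not pass. NAF1 rose in H1048 (0.20), and ZNHIT6 in H1048 (0.18) and RH30 (0.28), but in H1048 both changed sign on rescaling (−0.011 and −0.029).

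RRN3 rose by log2 0.34 to 0.90, most in RH30, where treated libraries held 84.2, 85.4, 82.4 and 85.2 TPM and DMSO libraries 45.1, 42.7, 45.8 and 45.4 TPM. In AsPC-1 EV cells RRN3 was 95.3, 97.6 and 102 TPM against 73.9, 71.2 and 76.5 TPM, and in T3M-4 EV cells 45.4, 50.1 and 47.6 TPM against 28.8, 39.0 and 34.2 TPM. The polymerase subunit POLR1B and TCOF1 went the other way in all 6, so the polymerase I group was split. After rescaling ZNHIT3 and RRN3 each passed in 5 of 6 lines and lost the call in AsPC-1 EV cells (ZNHIT3 0.01, RRN3 0.14).

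Further members past the threshold differed by line. NOP16 was at log2 −0.86 and TCOF1 at −0.80 in T3M-4 EV cells, POLR1B at −0.58 in AsPC-1 EV cells, TCOF1 at −0.72 in T84, DDX21 at −0.75 in A375, RRP9 at −0.67 and GRWD1 at −0.60 in H1048, and NOP2 at −0.79 and FTSJ3, a pre-ribosomal methyltransferase, at −0.72 in RH30. BOP1 rose in A375 (0.33), GNL2 in A375 (0.32), H1048 (0.27) and T84 (0.20), and WDR75 in A375 (0.26) and RH30 (0.18). The size of the CB-6644 effect differed between T84, A375, H1048 and RH30 for 43 of 48 members, a share near the 86.2% of all genes.

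**Figure D3:**
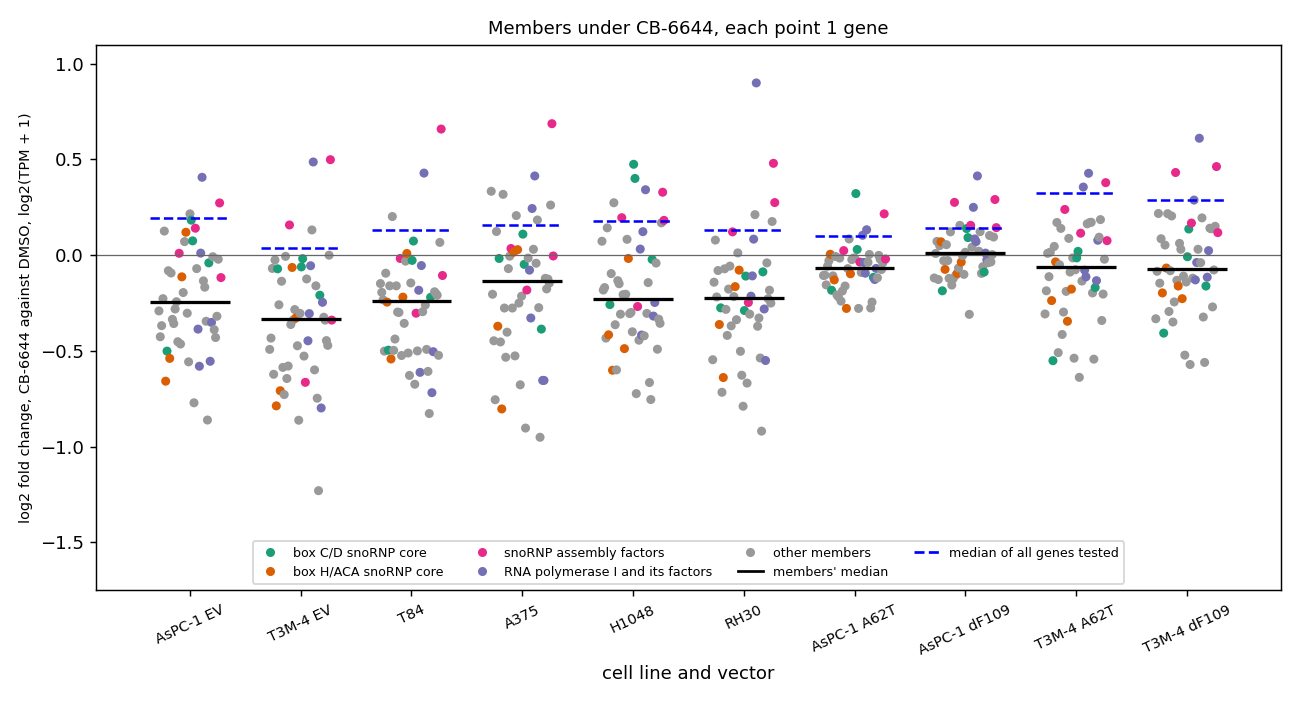
Log2 fold change, on the log2(TPM + 1) scale, of each member (1 point) under CB-6644 against DMSO, by line and vector; black bars are the members' median and dashed blue bars the median of all genes tested. In the 6 groups on the left the members' median lies between −0.33 and −0.14, and in the 4 groups with a tolerant variant between −0.07 and 0.01. The members' median minus that of all genes is −0.369, −0.389 and −0.358 in T3M-4 (EV, RUVBL1_A62T, RUVBL2_dF109). In AsPC-1 it is −0.435, −0.17 and −0.132.

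Cells carrying RUVBL1_A62T or RUVBL2_dF109 carry the tolerant ATPase subunit in excess: RUVBL1 was 2670 to 2960 TPM in AsPC-1 RUVBL1_A62T cells and RUVBL2 1610 to 2180 TPM in AsPC-1 RUVBL2_dF109 cells. CB-6644 raised 1 and lowered 7 of 47 members in AsPC-1 RUVBL1_A62T cells (10.8% and 1.98% of all genes), and raised 4 and lowered 2 in AsPC-1 RUVBL2_dF109 cells (29.3% and 4.1%). In T3M-4 it raised 2 and lowered 10 of 48 with RUVBL1_A62T (45.4% and 4.6%) and raised 5 and lowered 8 with RUVBL2_dF109 (34.3% and 3.34%). All genes had a median of log2 0.10 to 0.33 here. Relative to that shift the members lay 0.13 to 0.39 lower. In EV cells the same difference was −0.435 in AsPC-1 and −0.369 in T3M-4, against −0.389 and −0.358 in the T3M-4 variant cells. Rescaled counts were 0 higher and 22 lower, 1 and 23, 0 and 34, and 0 and 32. The rescaled counts over all genes were 649 higher and 1044 lower, 1436 and 2431, 1383 and 2503, and 1148 and 2131. These comparisons pool the 3 DMSO libraries of a line. Counts hung on single libraries: leaving out 1 gave 0 to 11 lowered members in AsPC-1 RUVBL1_A62T cells, 2 to 11 raised in AsPC-1 RUVBL2_dF109 cells, and 17 lowered in T3M-4 RUVBL1_A62T cells without the EV DMSO library, which also took T3M-4 EV cells from 23 to 35. With only treated cells of 1 vector and the DMSO libraries in the fit, 12 fell in T3M-4 EV cells and 0 in AsPC-1 RUVBL1_A62T cells. Shares of all genes were not counted in these fits, nor in those without 1 library.

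Treated EV cells were next set directly against treated variant cells, 3 libraries each, which uses no DMSO library. In AsPC-1, 22 of 47 members were lower and 4 higher in EV than in RUVBL1_A62T cells (18.9% and 32.3% of all genes), and 27 lower and 0 higher than in RUVBL2_dF109 cells (20.9% and 26.3%). In T3M-4, 24 of 48 were lower and 2 higher than in RUVBL1_A62T cells (41.4% and 9.21%), and 28 lower and 1 higher than in RUVBL2_dF109 cells (29.8% and 4.86%). The 2 lines differ once all genes are considered: the median gene was at log2 0.09 and 0.04 in AsPC-1 but −0.27 and −0.24 in T3M-4, so that the members lay 0.23 and 0.29 below it in AsPC-1, and 0.04 above and 0.06 below it in T3M-4. Rescaled, the lower members were 30 and 32 in AsPC-1, with 0 higher, and 10 and 7 in T3M-4, with 8 and 2 higher. Over all genes 3707 and 3484 were then lower in AsPC-1, with 2689 and 2694 higher. In T3M-4 3031 and 1905 were lower, with 2757 and 1577 higher.

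DKC1, GAR1 and RRS1 were lower in EV than in variant cells in both lines. DKC1 in treated AsPC-1 cells was 128, 135 and 127 TPM with RUVBL1_A62T and 139, 131 and 139 TPM with RUVBL2_dF109, wholly above the EV values given (log2 −0.66 and −0.73). In T3M-4 DKC1 was 92.1, 99.3 and 96.3 TPM and 100, 99.7 and 96.0 TPM (log2 −0.55 and −0.59). RRS1 in treated AsPC-1 cells was 30.4, 28.8 and 32.6 TPM with RUVBL1_A62T and 33.7, 35.1 and 35.8 TPM with RUVBL2_dF109 (log2 −0.62 and −0.80), and in T3M-4 35.1, 38.2 and 34.4 TPM and 36.8, 34.8 and 34.7 TPM (log2 −0.69 and −0.67). Again no library overlapped an EV one. In T3M-4, however, all these RRS1 values with a variant lay under the DMSO values given above. The median gene in the T3M-4 tests was itself at log2 −0.27 and −0.24, and rescaled values of these genes are not given here. GAR1 differed by log2 −0.41 and −0.47 in AsPC-1 and −0.67 and −0.64 in T3M-4.

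The following members were not lower in EV than in variant cells in both lines. NPM1 in treated AsPC-1 cells was 1910, 2080 and 1920 TPM with RUVBL1_A62T and 1880, 1880 and 2030 TPM with RUVBL2_dF109, above EV (log2 −0.49 and −0.46). In T3M-4 it was 1530, 1620 and 1610 TPM and 1640, 1670 and 1680 TPM, no different from EV by the test (log2 0.11 and 0.04), and CB-6644 lowered NPM1 in T3M-4 variant cells by log2 −0.64 and −0.57. FBL was lower in EV than in both variants in AsPC-1 (log2 −0.32 each) and higher than in both in T3M-4 (0.48 and 0.34). ZNHIT3 passed in none of the 4 tests (log2 −0.02 to 0.12), and CB-6644 raised it in 3 of the 4 variant groups (log2 0.29, 0.38 and 0.46; 0.22 in AsPC-1 RUVBL1_A62T cells did not pass). RRN3 was higher in EV than in RUVBL1_A62T cells of AsPC-1 (0.27) and in no other pair, and rose under CB-6644 in the same 3 variant groups (0.41, 0.43 and 0.61). Rescaled, 0 members rose in either T3M-4 variant group and 1 in AsPC-1 RUVBL2_dF109 cells, so neither gene passed in the T3M-4 variant groups. With 1 DMSO library per vector, an effect of the vector and the response to CB-6644 cannot be told apart in these direct tests.

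MYC fell in all 6 CB-6644 comparisons without a variant, by log2 −0.87 in AsPC-1 EV cells (mean 36.4 against 67.7 TPM), −1.39 in T3M-4 EV cells (38.0 against 100.5 TPM), −1.06 in T84, −0.88 in A375 (3.02 against 6.37 TPM), −0.75 in H1048 and −1.0 in RH30. It passed in none of the 4 variant groups (log2 −0.03 to 0.29) and was lower in EV than in variant cells in all 4 direct tests (log2 −1.67 to −0.98). Of the 86 further ribosome biogenesis genes, 38 to 58 fell and 3 to 24 rose in the 6 comparisons, and of the 16 replication genes 6 to 15 fell. Among all genes 15.2% to 29.7% fell and 19.1% to 53.9% rose there. The part of MYC or of proliferation in the members' values was not tested.

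KLF5, a transcription factor of epithelial cells, is the other target of the study. After its knockout most members missed the threshold in most experiments. With 2 to 6 libraries a group, that does not show that they stayed where they were. AsPC-1 sgKLF5 experiment 1 raised 0 of 48 and lowered 3 (17.1% and 8.81% of all genes): TCOF1 (log2 −0.52), FBL (−0.26) and LYAR (−0.24). Experiment 3 raised NPM1 (0.17) and NHP2 (0.16) and lowered NIP7 (−0.20), at 15.4% and 12.3%. T3M-4 experiment 2 raised 0 and lowered 9 of 48 (23.4% and 11.2%), led by FBL (−0.36), POLR1B (−0.31), NHP2 (−0.28), WDR12 (−0.28) and NOP16 (−0.25), and rescaled the count was 26. Rescaling also raised the count for AsPC-1 experiment 1 to 11. Falls over all genes went from 1490 to 2769 in T3M-4 experiment 2 and from 1045 to 1728 in AsPC-1 experiment 1. CFPAC-1 raised 7 and lowered 0 (3.26% and 13%), led by NOP16 (0.43), PES1 (0.31) and POLR1C (0.27). Its median gene fell, and rescaled it raised 21, while rises over all genes went from 416 to 1075. Leaving out 1 library gave 0 to 12, and sgKLF5 with sgRosa alone in the fit gave 0, with the shares of all genes not counted.

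BxPC-3 was the exception, and in 1 of its 2 experiments. In experiment 2 sgKLF5 raised 37 of 48 members and lowered 0 (21% and 13.6% of all genes), with a median of log2 0.42 against 0.05 for all genes. The members' counts were the same with rescaling, when 2256 of all genes rose and 2257 fell. NOP56 (log2 0.86), NOP58 (0.77), MRTO4 (0.71), RRP9 (0.69) and RRS1 (0.64) led. NOP56 was 307, 268, 203 and 191 TPM in sgRosa and 447, 428, 415 and 442 TPM in sgKLF5, and the sgRPA3 libraries of that experiment held 137 and 136 TPM. NOP58 was 157, 153, 138 and 133 TPM in sgKLF5 and 50.1 and 51.0 TPM in sgRPA3, on either side of sgRosa. In experiment 1 sgKLF5 raised 0 and lowered only TCOF1 (log2 −0.40; 8.09% and 8.1%), and NOP56 was 432 and 427 TPM in sgRosa and 450, 426, 429 and 415 TPM in sgKLF5. The sgRosa level of NOP56 in experiment 2 was thus under that of experiment 1, while the sgKLF5 levels of both overlapped. The difference between the experiments passed for 31 of 48 members (19.8% of all genes). The replication genes moved as well, with 9 of 16 higher and 1 lower in experiment 2; their part was not tested.

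In 2 comparisons a library stood apart. In T3M-4 experiment 1 limma passed no member (3.26% and 2.46% of all genes; 11 members had an unadjusted p under 0.05) at a median of log2 −0.45, and the library at r 0.929 had a members' median of −0.87 and an all-gene median of −0.82. RRN3 in the 4 sgKLF5 libraries was 31.5, 8.71, 41.5 and 41.8 TPM. Without that library 20 members fell, at a median of −0.28, and the share of all genes in that fit was not counted. In SUIT-2 limma passed no member (2.94% and 1%; 5 with an unadjusted p under 0.05) at a median of 0.23, which was 0.10 without sgRosa replicate 1, when 2 rose. For that fit too the share of all genes was not counted. Over the 8 KLF5 comparisons ZNHIT3 passed in none and RRN3 in 1 (BxPC-3 experiment 2, log2 0.40). The KLF5 effect did not differ between experiments for any member in AsPC-1 (4.6% of all genes passed) or T3M-4 (1.67%) in limma.

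**Figure D4:**
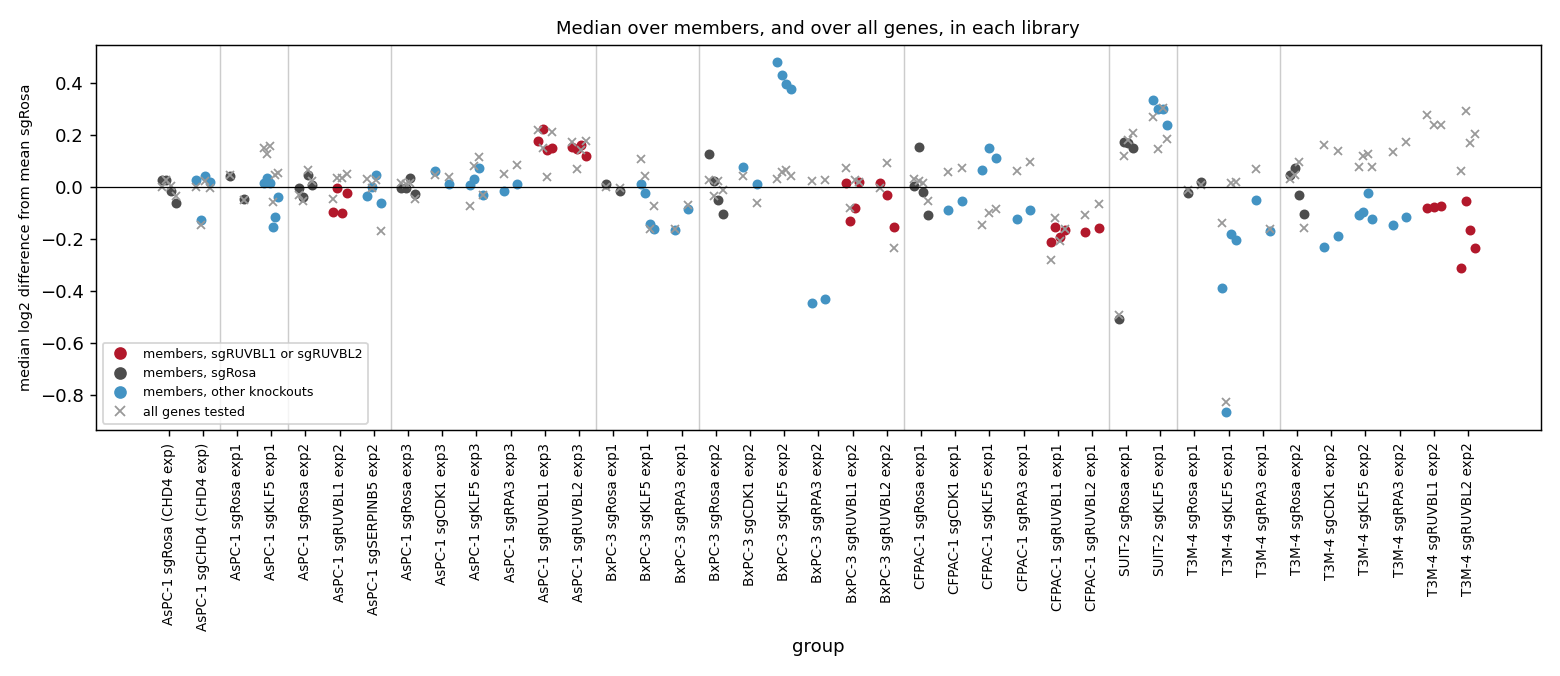
Median log2 difference from the mean sgRosa library over the members (dots) and over all genes tested (grey crosses) in each knockout library, by group. Red dots are sgRUVBL1 or sgRUVBL2, dark grey dots sgRosa and blue dots other targets. BxPC-3 sgKLF5 experiment 2 lies between 0.38 and 0.48 with crosses near 0, and the T3M-4 sgKLF5 library at −0.87 and the SUIT-2 sgRosa library at −0.51 have crosses beside their dots.

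In control libraries the members covered a wide range of levels, given as the mean of a line and on the length-scaled TPM. NPM1 was highest, from 2110 TPM in SUIT-2 to 4440 TPM in A375, followed by NCL with a median over lines of 768 TPM and by FBL with 412 TPM. The snoRNP proteins NOP10 (392 TPM), NHP2 (244 TPM), NOP56 (233 TPM), SNU13 (181 TPM), NOP58 (172 TPM) and DKC1 (147 TPM) came next. The assembly factor NUFIP1 (9.61 TPM) and the small subunit protein PWP2 (4.40 TPM) were the lowest, and PWP2 fell under the filter of 1 TPM in some fits, where 47 members were tested. Pancreatic markers of the classical subtype were above 1 TPM in AsPC-1 (4 of 5), CFPAC-1 (5 of 5), SUIT-2 (4 of 5), BxPC-3 and T3M-4 (3 of 5 each) and also T84 (5 of 5). Those of the basal-like subtype were so in BxPC-3, T3M-4 and H1048 (4 of 4 each), in AsPC-1 and CFPAC-1 (2 of 4 each) and not in SUIT-2 (0 of 4). Their sums lay far apart, at 10700 to 14800 TPM in BxPC-3, 3930 to 10600 TPM in T3M-4 and 46.6 to 56.5 TPM in H1048. A count above 1 TPM thus does not show a shared identity. 4 of 4 rhabdomyosarcoma markers were above 1 TPM in RH30 and 0 of 4 in every other line. Melanoma markers passed 1 TPM in A375 and in H1048 (3 of 4 each), with sums of 251 to 257 TPM and 9.85 to 10.6 TPM. Colorectal markers did so in T84, AsPC-1 and CFPAC-1 (4 of 4 each), with sums of 1440 to 1560, 1090 to 2290 and 5.16 to 8.83 TPM. Tuft markers did so in H1048, BxPC-3, T3M-4 and T84 (3 of 4 each). Their sums were 597 to 650, 3.5 to 7.1, 5.66 to 9.83 and 36.7 to 42.9 TPM. The summed fibroblast markers were 0 to 144 TPM over all libraries (DCN at most 1.34 TPM, PDGFRA 3.08 TPM, COL1A2 41.0 TPM and LUM 144 TPM). The leukocyte markers summed to 7.36 to 319 TPM (CD3E at most 6.73 TPM, PTPRC 23.2 TPM, LYZ 148 TPM and CD68 238 TPM).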

How the data were processed

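Poly-A RNA was sequenced as single-end reads of 76 bases per the study's methods. The authors pseudo-aligned reads to hg38 transcripts with kallisto, removed transcripts of low abundance at a limit not given in the sources used here, and summed transcripts to genes with tximport. The deposited values are gene TPM with the same sum in each library, so the number of reads, and with it counting error, is unknown. Read counts were not used here, so the count model of the study was replaced by limma (version 3.58.1, in R 4.3.3) with an intensity trend on log2(TPM + 1). All libraries of 1 line and 1 experiment (the first number of the replicate label) were fitted together over genes averaging 1 TPM or more, with Benjamini-Hochberg adjustment over all genes and a threshold of 0.05. Comparisons of 1 fit share the sgRosa or DMSO libraries, and for CB-6644 in AsPC-1 and T3M-4 the control was the 3 DMSO libraries of the vectors. No column of samples was left unmapped. The fit was tested on simulated data. Alternatives were a pseudocount of 0.1, no filter, a filter of 5 TPM, median-of-ratios scaling, only the groups compared, a replicate block, the DMSO library of the same vector alone, and leaving out each library.

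The members and all gene lists were chosen with earlier results of these data known. Named in each family of comparisons were the C/D core, the H/ACA core and the assembly factors, the 5 largest rises and falls past the threshold in a comparison, and members passing in 1 direction in at least 7 of the 9 RUVBL comparisons. Of the listed non-coding snoRNA host genes only SNHG32 had a row, under its older name C6orf48, and its values are not given here. Whether same-numbered replicates vary together was checked in 37 comparisons and held in 0. Promoter letters came from the RefSeq table of GRCh38.p14, in which 10 of the 49 listed genes had no entry.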

Additional observations from a re-analysis of the deposited data

Results flagged for a closer look

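In 240 groups and values of 4 to 10 libraries, 13 had 1 library far from the others, where chance gives about 1 in 20. In the AsPC-1 CHD4 experiment these were sgCHD4 replicate 2, with a members' median log2 difference from the controls of −0.126, and sgRosa replicate 1, with NUFIP1 at 7.92 TPM and ZNHIT3 at 74.1 TPM. Among RUVBL experiments they were AsPC-1 sgRUVBL2 replicate 2 (FBL 337 TPM), CFPAC-1 sgRUVBL1 replicate 3 (DKC1 106 TPM), T3M-4 sgRosa replicate 4 of experiment 2 (NUFIP1 6.57 TPM) and T3M-4 sgRUVBL2 replicate 1 (DKC1 70.2 TPM). SUIT-2 sgRosa replicate 1 had a members' median of −0.507 and NUFIP1 at 1.76 TPM. Under CB-6644, T84 replicate 4 had a members' median of −0.307, RH30 replicate 2 one of −0.255, and H1048 replicate 4 had NOP58 at 252 TPM and NUFIP1 at 6.06 TPM.

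Effects of the same treatment differed between groups by an interaction test in limma for the following members. The CB-6644 effect differed between T84, A375, H1048 and RH30 for NOP56 (adjusted p = 3.05e-16), NOP58 (6.49e-10), FBL (8.91e-09), SNU13 (3e-07), DKC1 (0.00575), NHP2 (1.89e-09), GAR1 (0.0103), NAF1 (0.0316), ZNHIT3 (1.47e-06), ZNHIT6 (0.00135), RRN3 (1.53e-11) and NPM1 (1.18e-05). Of these, NOP56 and NOP58 rose in one line and fell in another, while DKC1, GAR1, ZNHIT3, RRN3 and NPM1 kept 1 direction in these 4 lines and differed in size. The sgRUVBL1 effect in AsPC-1 differed between experiments 2 and 3 for NOP56 (adjusted p = 0.0249), NOP58 (0.00183), NOP10 (0.0463), NUFIP1 (0.0473) and NPM1 (0.00364). The sgKLF5 effect in BxPC-3 differed between experiments 1 and 2 for NOP56 (adjusted p = 0.00249), NOP58 (0.0013), DKC1 (0.000283), GAR1 (0.00256), NAF1 (0.0422), RRN3 (0.0401) and NPM1 (0.00246).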

How the results depend on the processing

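The members' medians kept their direction and moved by less than 1 SD of the libraries in all 55 comparisons with a pseudocount of 0.1, without a filter, with a filter of 5 TPM and with only the groups compared in the fit. The counts of members passing moved more. Apart from median-of-ratios scaling, the share of all genes was not counted in any alternative, so these counts do not set the members apart. With only the groups compared in the fit the falls went from 18 to 1 in T3M-4 sgCDK1, 9 to 0 in T3M-4 sgRPA3 experiment 2, 23 to 12 in T3M-4 EV, 7 to 0 in AsPC-1 RUVBL1_A62T, 2 to 1 in AsPC-1 RUVBL2_dF109, 4 to 0 in CFPAC-1 sgRUVBL2, 3 to 0 in BxPC-3 sgRUVBL2, 6 to 2 in CFPAC-1 labelled sgRPA3, 2 to 1 in BxPC-3 sgCDK1, 1 to 0 in BxPC-3 sgKLF5 experiment 1, 1 to 4 in AsPC-1 sgCDK1 and 4 to 0 in AsPC-1 sgRUVBL2 minus sgRUVBL1. The rises went from 7 to 0 in CFPAC-1 sgKLF5, 3 to 0 in BxPC-3 sgRUVBL2, 3 to 9 in AsPC-1 sgCDK1, 0 to 1 in AsPC-1 sgRPA3 and in T3M-4 sgKLF5 experiment 2, 4 to 2 in AsPC-1 RUVBL2_dF109, 5 to 3 in T3M-4 RUVBL2_dF109, 2 to 1 in T3M-4 EV and 0 to 2 in AsPC-1 EV minus RUVBL2_dF109. Between knockouts and the mean of sgCDK1 and sgRPA3 they went from 16 to 5 in BxPC-3 sgRUVBL2 and 8 to 5 in T3M-4 sgRUVBL2, and the falls from 6 to 3 in AsPC-1 sgRUVBL1, 1 to 0 in BxPC-3 sgRUVBL2 and 4 to 9 in CFPAC-1 sgRUVBL2. Without a filter the falls went from 7 to 3 in AsPC-1 RUVBL1_A62T, from 2 to 1 in BxPC-3 sgCDK1 and from 1 to 0 in AsPC-1 sgCDK1 and in BxPC-3 sgRUVBL2 minus sgCDK1 and sgRPA3, and the rises from 2 to 1 in AsPC-1 sgKLF5 experiment 3. With a filter of 5 TPM the falls in BxPC-3 sgKLF5 experiment 1 went from 1 to 2, and a pseudocount of 0.1 moved no count by over 1.5 times. Over 122 alternatives of the 9 RUVBL comparisons, ZNHIT3 kept its direction and side of the threshold in 110 (log2 0.18 to 0.92), RRN3 in 114 (0.15 to 1.54), FBL in 112 (−1.18 to 0.27) and NPM1 in 113 (−0.97 to 0.11), and none turned where it had passed. Depth was not given, so values near the filter, such as PWP2 and NUFIP1, have unknown counting error.

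Median-of-ratios scaling, which removes the shift of the median gene, moved the members' median log2 difference by more than 1 SD of the libraries in 39 comparisons, turning its sign in 12 of them. In 3 more the sign turned within 1 SD, to 0.017 in BxPC-3 sgRUVBL2, 0.014 in AsPC-1 sgCHD4 and 0.0023 in BxPC-3 sgRUVBL2 minus sgRUVBL1. Scaled, it was −0.0074 in AsPC-1 sgRUVBL1 experiment 3, −0.032 in AsPC-1 sgRUVBL2, −0.33 in T3M-4 sgRUVBL1, −0.40 in T3M-4 sgRUVBL2, 0.037 in CFPAC-1 sgRUVBL1 and −0.084 in CFPAC-1 sgRUVBL2. In the other knockouts it was −0.0036 in AsPC-1 sgCDK1, −0.045 in AsPC-1 sgRPA3, −0.39 in T3M-4 sgCDK1, −0.32 in T3M-4 sgRPA3 experiment 2, 0.028 in BxPC-3 sgRPA3 experiment 1, −0.47 in BxPC-3 sgRPA3 experiment 2, −0.14 in CFPAC-1 labelled sgCDK1 and −0.21 in CFPAC-1 labelled sgRPA3. In the KLF5 knockouts it was −0.12 in AsPC-1 sgKLF5 experiment 1, 9.1e-05 in SUIT-2 sgKLF5, −0.21 in T3M-4 sgKLF5 experiment 2, 0.37 in BxPC-3 sgKLF5 experiment 2 and 0.25 in CFPAC-1 sgKLF5. Under CB-6644 it was −0.51 in AsPC-1 EV, −0.20 in AsPC-1 RUVBL1_A62T, −0.18 in AsPC-1 RUVBL2_dF109, −0.27 in AsPC-1 EV minus RUVBL1_A62T, −0.32 in AsPC-1 EV minus RUVBL2_dF109, −0.43 in T3M-4 EV and −0.44 in T3M-4 RUVBL1_A62T. It was −0.42 in T3M-4 RUVBL2_dF109, 0.050 in T3M-4 EV minus RUVBL1_A62T, −0.046 in T3M-4 EV minus RUVBL2_dF109, −0.43 in T84, −0.35 in A375, −0.44 in H1048 and −0.39 in RH30. Between knockouts it was 0.028 in AsPC-1 sgRUVBL1 minus sgCDK1 and sgRPA3, 0.015 in AsPC-1 sgRUVBL2 minus sgCDK1 and sgRPA3, −0.062 in T3M-4 sgRUVBL1 minus sgCDK1 and sgRPA3, 0.21 in CFPAC-1 sgRUVBL1 minus sgCDK1 and sgRPA3, 0.15 in CFPAC-1 sgRUVBL2 minus sgCDK1 and sgRPA3 and −0.080 in CFPAC-1 sgRUVBL2 minus sgRUVBL1. By gene, scaling turned NOP56 to −0.16 in AsPC-1 sgRUVBL2, −0.086 in AsPC-1 EV and −0.11 in A375, DDX18 to −0.022 in T3M-4 sgRUVBL1 and −0.091 in RH30, and NAF1 to −0.24 in AsPC-1 EV, −0.17 in A375 and −0.011 in H1048. It turned NOP58 to −0.11 and NOP10 to −0.18 in T84, NHP2 to −0.21 and NOP10 to −0.19 in A375, and ZNHIT6 to −0.029 in H1048. The cause of these changes was not tested beyond the shift itself.

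With the DMSO library of the same vector alone as control the median was −0.38 in AsPC-1 EV, −0.018 in AsPC-1 RUVBL1_A62T, 0.039 in AsPC-1 RUVBL2_dF109, −0.13 in T3M-4 EV, −0.20 in T3M-4 RUVBL1_A62T and −0.12 in T3M-4 RUVBL2_dF109. The falls then went from 7 to 0 in AsPC-1 RUVBL1_A62T, 23 to 15 in T3M-4 EV, 10 to 5 in T3M-4 RUVBL1_A62T and 8 to 14 in T3M-4 RUVBL2_dF109, and the rises from 4 to 8 in AsPC-1 RUVBL2_dF109 and 2 to 0 in T3M-4 RUVBL1_A62T. NOP56 in T3M-4 EV turned to 0.17. The same-numbered replicates of no comparison all varied together, so the block is a check only. With the replicate number as a block it was −0.054 in T3M-4 sgRUVBL1, −0.21 in CFPAC-1 sgRUVBL2, −0.029 in BxPC-3 sgCDK1, −0.49 in BxPC-3 sgRPA3 experiment 2, −0.096 in CFPAC-1 sgCDK1 and 0.011 in CFPAC-1 sgRUVBL2 minus sgRUVBL1. It took the falls in T3M-4 sgKLF5 experiment 1 from 0 to 19 those in BxPC-3 sgRUVBL1 from 4 to 8, those in BxPC-3 sgRUVBL2 from 3 to 7, those in BxPC-3 sgCDK1 from 2 to 1 and the rises in AsPC-1 sgKLF5 experiment 1 from 0 to 3, while the falls in T3M-4 sgRUVBL2 were 23 in both.

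Leaving out 1 library at a time gave medians of 0.13 to 0.16 in AsPC-1 sgRUVBL2, −0.11 to −0.022 in T3M-4 sgRUVBL1, −0.22 to −0.13 in CFPAC-1 sgRUVBL1, −0.20 to −0.13 in CFPAC-1 sgRUVBL2, −0.026 to 0.025 in AsPC-1 sgRPA3 and −0.17 to −0.047 in T3M-4 sgRPA3 experiment 1. This left medians of −0.26 to −0.19 in T3M-4 sgCDK1, −0.15 to −0.11 in T3M-4 sgRPA3 experiment 2, −0.16 to −0.084 in BxPC-3 sgRPA3 experiment 1, 0.0095 to 0.11 in BxPC-3 sgCDK1, −0.47 to −0.40 in BxPC-3 sgRPA3 experiment 2 and −0.11 to −0.020 in CFPAC-1 sgCDK1. The range was −0.15 to −0.060 in CFPAC-1 sgRPA3, −0.11 to 0.018 in AsPC-1 sgKLF5 experiment 1, 0.099 to 0.28 in SUIT-2 sgKLF5, −0.13 to −0.065 in T3M-4 sgKLF5 experiment 2, 0.073 to 0.17 in CFPAC-1 sgKLF5 and −0.30 to −0.17 in AsPC-1 EV. It gave −0.10 to −0.016 in AsPC-1 RUVBL1_A62T, −0.037 to 0.052 in AsPC-1 RUVBL2_dF109, −0.28 to −0.21 in AsPC-1 EV minus RUVBL2_dF109, −0.44 to −0.23 in T3M-4 EV, −0.16 to −0.0029 in T3M-4 RUVBL1_A62T and −0.14 to 0.010 in T3M-4 RUVBL2_dF109. This left medians of −0.27 to −0.22 in T3M-4 EV minus RUVBL1_A62T, −0.33 to −0.27 in T3M-4 EV minus RUVBL2_dF109, 0.079 to 0.15 in AsPC-1 sgRUVBL2 minus sgCDK1 and sgRPA3, −0.055 to −0.0083 in AsPC-1 sgRUVBL2 minus sgRUVBL1, 0.031 to 0.084 in T3M-4 sgRUVBL1 minus sgCDK1 and sgRPA3 and −0.047 to −0.016 in CFPAC-1 sgRUVBL2 minus sgCDK1 and sgRPA3. The range was 0.0064 to 0.066 in CFPAC-1 sgRUVBL2 minus sgRUVBL1. The cause was not tested. By count, 1 library decided several results: without it the falls were 0 to 14 in CFPAC-1 sgRUVBL2, 0 to 7 in BxPC-3 sgRUVBL2, 2 to 7 in BxPC-3 sgRUVBL1, 2 to 14 in T3M-4 sgRPA3 experiment 2, 1 to 6 in CFPAC-1 labelled sgRPA3 and 5 to 15 in T3M-4 RUVBL2_dF109. The rises were 3 to 8 in AsPC-1 EV, 2 to 7 in T3M-4 RUVBL1_A62T and 3 to 11 in T3M-4 RUVBL2_dF109.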
